A study of Mus musculus with 4 samples.

Results

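The genes described here are 9 that encode macrophage identity factors, receptors for colony-stimulating factors (CSF) and macrophage products. They comprise the transcription factor genes Spi1, Cebpa, Cebpb and Maf, the receptor genes Csf1r, Csf2ra and Csf2rb, and the surface and secreted products Adgre1 and Lyz2. They were taken by exact gene symbol from the count table of each library, and all 9 were found among its 55367 gene rows. All 9 also had enough counts to be among the 11837 genes tested.

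Spi1 encodes PU.1, an ETS family factor that is needed for the macrophage lineage and that binds purine-rich sites together with partners of the C/EBP family. Macrophages depend for survival on CSF1 (M-CSF), which acts through the receptor tyrosine kinase CSF1R, and they respond to GM-CSF through a binding chain, CSF2RA, and a signaling chain, CSF2RB. CSF1R, the adhesion receptor F4/80 encoded by Adgre1 and the lysozyme encoded by Lyz2 are in common use as marks of mouse macrophages, including those within tumors.

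RNA was measured in 4 bulk mouse libraries of polyadenylated RNA, 2 titled WT and 2 titled KO and numbered 1 and 2 within each group. All 4 came from dissociated tumors grown from the mouse melanoma line B16-F10, and the cells were sorted as CD45.2+CD8+, so that blood-derived cells bearing the CD8 coreceptor were the stated target. The text of the series names WT mice and mice with Satb1 F/F, the loxP-flanked gene of a chromatin organizer of T cells, together with ThPOK-cre or E8I-cre. These drivers act in T cells of the CD4 and the CD8 lineage, respectively. The labels give neither the driver behind the title KO nor the age, sex or number of mice per library. No source used here says that libraries of a group came from separate mice, so the p-values measure the spread between these libraries, which may be technical.

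The libraries held 4017875 to 5382915 counts on genes, with a ratio of 1.34 between the deepest and the shallowest, and the 2 libraries of each group differed by more than sampling noise. Satb1, the targeted gene, had 7 and 5 counts in the libraries titled WT against 131 and 55 in the KO ones. Its log2 fold change of 3.36 (SE 0.79; edgeR quasi-likelihood test, adjusted p = 0.115) was opposite to the titles and missed the threshold, so the groups are called the labeled-WT pair and the labeled-KO pair of libraries throughout. Markers of the sorted cells were scarce and those of macrophages abundant. Cd8a had 24 and 28 counts in the labeled-WT pair and 843 and 733 in the labeled-KO pair, while Lyz2 had at least 29370 in every library. The 10 T cell identity genes held 0.00672% and 0.0106% of gene counts in the labeled-WT pair and 0.244% and 0.123% in the labeled-KO pair. The T cell share thus differed in the same direction as Satb1, and its part in the Satb1 counts was not tested. The 20 macrophage and monocyte markers other than the 9 genes held 3.12% and 3.54% in WT 1 and WT 2, but 1.51% and 2.36% in KO 1 and KO 2. In bulk RNA, fewer cells of a type and less RNA per cell cannot be told apart.

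The lists for melanoma and for fibroblasts and endothelium were also higher in both libraries labeled KO, but those for other blood cells were not. The 7 melanoma genes held 0.0197% and 0.0244% of gene counts in WT 1 and WT 2 against 0.229% and 0.129% in KO 1 and KO 2. The 6 fibroblast and endothelium genes held 0.00207% and 0.00192% against 0.136% and 0.0198%. The CPM of all 7 melanoma genes were higher in both libraries labeled KO, as for 35.9% of all genes tested. So were those of the 4 fibroblast and endothelium genes tested. Cdh5, of the same list but not tested, had 7 counts in the labeled-WT pair and 2 in the labeled-KO pair. Of the 4 libraries KO 1 had the lowest share on macrophage markers and the highest on the lists for T cells, melanoma, and fibroblasts and endothelium. The dendritic cell list of 8 genes held 0.0102% to 0.0266% and the neutrophil list of 5 genes 0.000536% to 0.00524%, and in both the groups overlapped. The B cell list of 5 genes held 0.00159% and 0.00427% in WT 1 and WT 2. In KO 1 and KO 2 it held 0.000469% and 0.00149%, lower in both. Most counts of the B cell list belonged to Cd79b, with 61 and 182 counts in WT 1 and WT 2 and 12 and 73 in KO 1 and KO 2, while Pax5, a defining gene of B cells, had 0 counts in every library. The part of these shares in the values of the 9 genes was not tested.

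The 9 genes together held 1.08% and 1.75% of gene counts in WT 1 and WT 2 and 1.71% and 1.47% in KO 1 and KO 2. The means were 1.41% ± 0.474 (SD, n = 2) and 1.59% ± 0.173 (SD, n = 2), and the groups overlapped. Most of these counts belonged to Lyz2, which made up 68.0% and 77.3% of them in WT 1 and WT 2, and 88.5% and 74.7% in KO 1 and KO 2. Without Lyz2 the share was 0.345%, 0.395%, 0.196% and 0.371% in the same order, with KO 1 alone well below the rest.

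None of the 9 genes passed the threshold between the groups (edgeR quasi-likelihood test, adjusted p under 0.05), where 0.574% of all genes tested did. The unadjusted p fell under 0.05 for 2 of the 9, Cebpa and Spi1, both lower in the labeled-KO pair, and 4.23% of all genes tested were lower at that unadjusted level. At that level 13.7% of all genes tested differed in either direction. DESeq2 called 1 of the 9, Cebpa, and 3.51% of all genes tested. The fitted fold change of KO against WT was below 0 for 7 of the 9 and above 0 for 2, with a median log2 fold change of -0.60 beside a median of 0.05 over all genes tested. When the libraries were scaled to 20 other macrophage markers instead, which moved the median of all genes tested to 1.25 and put 94.2% of them above 0, it was below 0 for 2 of the 9, Spi1 and Cebpa. The CPM of the groups, which are counts scaled to a common total over gene rows, did not overlap for 3 of the 9. Spi1 and Cebpa were lower in both libraries labeled KO, as were 12.6% of all genes tested, and Csf2rb was higher in both, as were 35.9%. In data simulated from these libraries, the test recovered 26.5% of genes changed by 2 on the log2 scale and 95.5% of those changed by 4. The simulation gave genes of like level the same spread, equal in both groups. The real labeled-KO pair differed more than the labeled-WT pair, so these rates need not hold for the data.

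**Figure D1:**
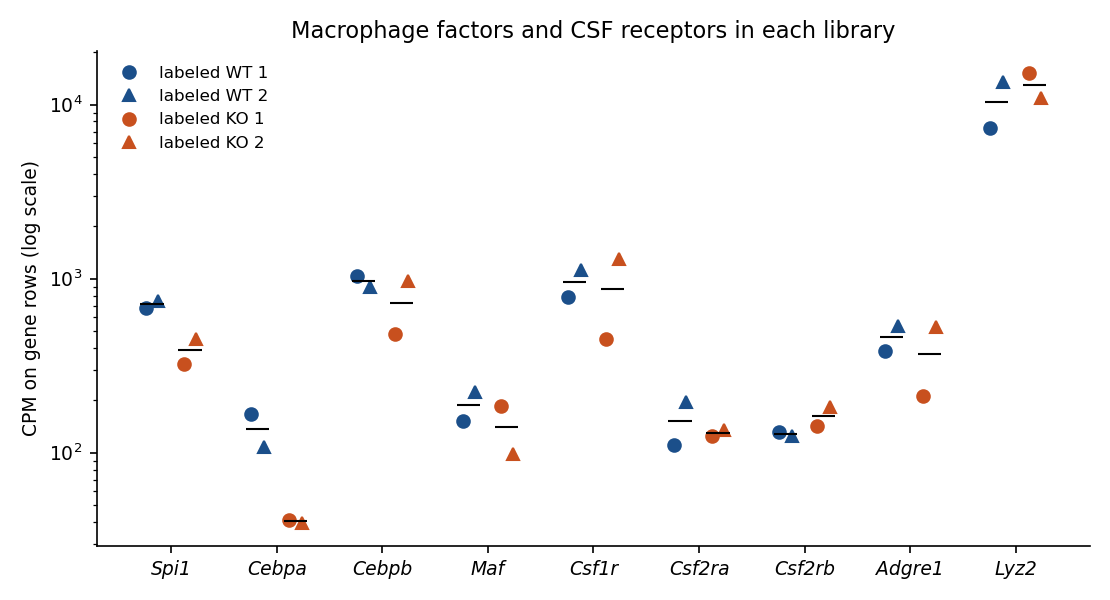
CPM of each of the 9 genes on a log scale, with 1 point per library and a black line at the mean of each group (n = 2), where circles are replicate 1 and triangles replicate 2. For Spi1 and Cebpa both libraries labeled KO lie below both labeled WT, and for Csf1r and Adgre1 the circle of KO 1 is the lowest point while KO 2 lies near or above WT 2.

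Of the 4 transcription factors, Spi1 and Cebpa had lower levels in the labeled-KO pair, without passing the threshold, while the CPM of Cebpb and Maf overlapped between the groups. Spi1 (ENSMUSG00000002111.8, chr2:91082390-91115756, plus strand, GRCm38/mm10) had 678 and 746 CPM in the labeled-WT pair, from 2723 and 3178 counts. In KO 1 and KO 2 it had 324 and 450 CPM, from 1450 and 2424 counts. Both libraries labeled KO lay below both labeled WT, and KO 1 was the lower of them. The group means were 712 ± 48.2 CPM and 387 ± 89.5 CPM (SD, n = 2 each), and the log2 fold change was -1.20 (SE 0.48; edgeR quasi-likelihood test, adjusted p = 0.319). Without KO 2 the log2 fold change was -1.58 with an edgeR adjusted p of 0.0288, which passes the threshold, as 4.08% of genes did in the lower direction, and without KO 1 it was -0.93. In each fit without a library, here and for the genes that follow, 1 group is a single library that is assumed to vary like the other group, which alone gives the spread, so a call without KO 2 compares KO 1 with the labeled-WT pair and carries no replicate spread of its own.

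Cebpa (ENSMUSG00000034957.10, chr7:35119293-35121928, plus strand) encodes C/EBPα, the factor that opens the granulocyte and monocyte program in progenitors, and is a gene of a single exon. It had 168 and 107 CPM in the labeled-WT pair, from 673 and 457 counts. In the labeled-KO pair it had 41.3 and 39.4 CPM, from 185 and 212 counts. The labeled-KO libraries were nearly equal, and the lower of the labeled-WT pair was still well above them. The log2 fold change was -2.13 (SE 0.47), the largest in size of the 9, with an adjusted p of 0.0901 in the edgeR quasi-likelihood test, which is not past the threshold. It passed with the DESeq2 Wald test (log2 fold change -2.14, adjusted p = 0.00215), with edgeR's likelihood ratio test (adjusted p = 0.00229), with no filter on low counts (edgeR adjusted p = 0.00453), with a crossed replicate block (edgeR adjusted p = 0.00393) and without KO 2 (edgeR adjusted p = 0.0169). The likelihood ratio test called 4.70% of all genes tested, the fit with no filter 2.74% and the crossed block 5.47%. Over all alternatives the adjusted p ran from 0.00215 to 0.778, the highest without WT 1, and the log2 fold change was below 0 in each of them.

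Cebpb (ENSMUSG00000056501.3, chr2:167688915-167690418, plus strand) encodes C/EBPβ, which is induced by inflammatory signals and drives cytokine and arginase genes in macrophages. It had 1042 and 899 CPM in the labeled-WT pair, and 484 and 971 CPM in KO 1 and KO 2. KO 2 lay between WT 1 and WT 2 and KO 1 lay well below them, so the groups overlapped. The log2 fold change was -0.74 (SE 0.55; edgeR quasi-likelihood test, adjusted p = 0.576), and it was -0.28 without KO 1. Without KO 2 it was -1.46 and passed (edgeR adjusted p = 0.0438), with KO 1 as the single library labeled KO and the spread from the labeled-WT pair. Cebpb shares 20.7% of its exon bases with Tmem189 on the opposite strand, and the strand setting of the counting was not given in the sources used here. Tmem189 had 2360 and 2072 counts in WT 1 and WT 2, with 1249 and 3420 in KO 1 and KO 2, so it too was lowest in KO 1. Whether reads of the overlap were counted for Cebpb is therefore not known from these sources, and Tmem189 says nothing about it.

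Maf (ENSMUSG00000055435.6, chr8:115682942-115707794, minus strand) encodes c-Maf, which in macrophages restrains self-renewal and promotes Il10, and which is also found in some T cells. It had 153 and 223 CPM in the labeled-WT pair and 185 and 98.3 CPM in KO 1 and KO 2. Here KO 2, not KO 1, was the lowest library, and KO 1 lay between WT 1 and WT 2. Maf had a log2 fold change of -0.75 (SE 0.46; edgeR quasi-likelihood test, adjusted p = 0.496).

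The CSF receptors showed no common direction. Csf1r (ENSMUSG00000024621.16, on chromosome 18) had 782 and 1121 CPM in the labeled-WT pair, from 3143 and 4777 counts. It had 450 CPM in KO 1 and 1304 CPM in KO 2, from 2014 and 7019 counts. The lowest and the highest of the 4 libraries were therefore both labeled KO, 2.90-fold apart. The log2 fold change was -0.40 (SE 0.61; edgeR quasi-likelihood test, adjusted p = 0.807), and which library labeled KO was kept decided its sign: it was 0.20 without KO 1 (edgeR adjusted p = 0.830) and -1.51 without KO 2 (edgeR adjusted p = 0.0380), both with a single library labeled KO and the spread from the labeled-WT pair. Csf1r shares 15.1% of its exon bases with Hmgxb3 on the opposite strand, which had only 137 and 129 counts in WT 1 and WT 2, with 95 and 282 in KO 1 and KO 2.

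Csf2ra (ENSMUSG00000059326.7, chr19:61223957-61228429, minus strand), the chain that binds GM-CSF, had 110 and 195 CPM in the labeled-WT pair and 124 and 136 CPM in the labeled-KO pair. Both libraries labeled KO lay between WT 1 and WT 2. Csf2ra had a log2 fold change of -0.54 (SE 0.44; edgeR quasi-likelihood test, adjusted p = 0.615).

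Csf2rb (ENSMUSG00000071713.6, chr15:78325752-78353847, plus strand) encodes the beta chain that the receptors for GM-CSF, IL-3 and IL-5 share. It had 131 and 125 CPM in the labeled-WT pair, and 142 and 183 CPM in the labeled-KO pair, which lay above both. Its mean was 128 ± 3.95 CPM in the labeled-WT pair and 163 ± 28.6 CPM in the labeled-KO pair (SD, n = 2 each). After scaling by trimmed mean of M-values (TMM) the groups overlapped, and the log2 fold change was 0.01 (SE 0.43; edgeR quasi-likelihood test, adjusted p = 0.992). Its sign changed under 3 alternatives and without WT 2 or KO 2, with values from -0.29 to 0.24 when a library was left out.

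Csf2rb shares sequence with its neighbor Csf2rb2 (chr15:78282507-78305721, minus strand), the mouse copy whose product serves IL-3 alone. The coding sequences were 95.2% identical over 2631 aligned bases, and 12.3% of the 50-base windows of Csf2rb transcripts also occurred in another gene, mostly Csf2rb2. Reads that lie wholly in such windows align to more than 1 place, and the tables set such reads apart from the gene rows. The pair is shown for bases 23 to 112 of the coding sequence in GENCODE M21, where capitals mark the 4 bases at which the copies differ.
Csf2rb: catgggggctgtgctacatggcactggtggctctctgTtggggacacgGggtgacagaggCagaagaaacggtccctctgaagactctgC
Csf2rb2: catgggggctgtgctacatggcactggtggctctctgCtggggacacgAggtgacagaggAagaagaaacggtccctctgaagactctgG
Csf2rb2 had 63.0 and 51.2 CPM in the labeled-WT pair and 45.1 and 35.1 CPM in the labeled-KO pair, lower in both. Its log2 fold change was -0.86 (SE 0.44; edgeR quasi-likelihood test, adjusted p = 0.421), so neither copy passed the threshold.

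Of the 2 macrophage products, Adgre1 had its lowest level in KO 1, as Csf1r did, and Lyz2 its highest. Adgre1 (ENSMUSG00000004730.15, chr17:57358691-57483527, plus strand) had 382 and 537 CPM in the labeled-WT pair and 211 and 529 CPM in KO 1 and KO 2. KO 1 was the lowest library and KO 2 lay just under WT 2, so the 2 libraries labeled KO were 2.50-fold apart. For Adgre1 the log2 fold change was -0.60 (SE 0.56; edgeR quasi-likelihood test, adjusted p = 0.670), and it was -0.05 without KO 1. Without KO 2 it was -1.55 (edgeR adjusted p = 0.0326) and passed, again for KO 1 alone against the labeled-WT pair.

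Lyz2 (ENSMUSG00000069516.8, chr10:117277331-117282321, minus strand) had 7310 and 13499 CPM in the labeled-WT pair and 15135 and 10941 CPM in KO 1 and KO 2. KO 1, lowest for Spi1, Cebpb, Csf1r and Adgre1, was the highest library here, and WT 1 was the lowest. The fitted log2 difference between the groups was 0.01 (SE 0.61; edgeR quasi-likelihood test, adjusted p = 0.997), and it ran from -0.36 to 0.34 when a library was left out.

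Lyz2 also has a close copy, Lyz1 (chr10:117287797-117292868, minus strand), and the coding sequences were 95.1% identical over 447 bases. Of the 50-base windows of Lyz2 transcripts, 15.4% were shared with Lyz1. Bases 127 to 216 of both coding sequences in GENCODE M21 are shown, with the 4 differing bases in capitals.
Lyz2: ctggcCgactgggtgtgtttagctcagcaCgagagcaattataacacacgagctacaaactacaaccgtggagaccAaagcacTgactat
Lyz1: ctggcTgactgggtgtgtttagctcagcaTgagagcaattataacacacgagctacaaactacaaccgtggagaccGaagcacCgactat
Lyz1 had 235 and 371 CPM in the labeled-WT pair and 310 and 65.6 CPM in KO 1 and KO 2, so KO 2 was the lowest library for Lyz1 but not for Lyz2. Its log2 fold change was -1.05 (SE 0.65; edgeR quasi-likelihood test, adjusted p = 0.499). Without KO 1, Lyz1 was among the genes that passed, for KO 2 alone against the labeled-WT pair, which gave the spread.

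Promoter sequence in the RefSeq table of GRCm38.p6, 250 bases before to 50 bases after the start, was given for 4 of the 9 genes, Cebpa, Cebpb, Csf2ra and Lyz2. The letters AGGAAGT, a core to which PU.1 binds, were searched on both strands (ACTTCCT on the other), as were the letters TTGCGCAA, a palindrome to which C/EBP factors bind. The PU.1 letters occurred in Lyz2 only, and the C/EBP letters in none of the 4. Of all 32544 windows of 300 bases in the table, 9.27% held the PU.1 letters and 0.184% the C/EBP letters. The copies Lyz1 and Csf2rb2 held the PU.1 letters as well. The upstream stretches of the 2 lysozyme genes are shown, 5′ to 3′ on the minus strand with the match in capitals, because they carry it at the same place and were 75.9% identical over 199 aligned bases. They lie at chr10:117282322-117282522 for Lyz2 and chr10:117292918-117293118 for Lyz1 in GRCm38.p6.
Lyz2 upstream: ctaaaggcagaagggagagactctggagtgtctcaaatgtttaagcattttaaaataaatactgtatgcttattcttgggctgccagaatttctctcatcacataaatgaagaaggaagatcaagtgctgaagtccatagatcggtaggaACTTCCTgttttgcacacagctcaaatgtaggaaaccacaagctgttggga
Lyz1 upstream: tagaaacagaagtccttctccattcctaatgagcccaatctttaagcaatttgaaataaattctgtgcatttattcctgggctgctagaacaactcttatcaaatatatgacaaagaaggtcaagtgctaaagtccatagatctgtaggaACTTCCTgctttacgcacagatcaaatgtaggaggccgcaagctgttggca
The match is a description of these letters, and binding was not measured here.

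To compare levels between genes, CPM were divided by the length of the annotated exons in kb. Lyz2 came first at a mean of 8907 CPM per kb and Cebpb followed at 564 CPM per kb, and both kept these ranks in each of the 4 libraries. Their ranges, 5555 to 11501 and 321 to 693 CPM per kb, overlapped with no other member's. Spi1 at 204, Csf1r at 158 and Adgre1 at 128 CPM per kb came next, with overlapping ranges, and Spi1 and Csf1r changed places in KO 2 while Adgre1 had rank 5 in every library. Csf2ra had a mean of 49.2 CPM per kb. Cebpa at 33.7, Maf at 19.99 and Csf2rb at 19.98 CPM per kb were the lowest, and neighbors from Adgre1 down to Csf2rb overlapped in range. Cebpa moved most in this order, from rank 6 in WT 1 to rank 9 in KO 1.

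Differences within a group were as large as those between groups for most of the 9 genes. On the log2 scale of normalized CPM (CPM on library sizes scaled by TMM), the larger of the differences between the 2 libraries of a group exceeded the difference between the group means for Cebpb, Csf1r, Csf2ra, Csf2rb, Adgre1 and Lyz2. It did not for Spi1, Cebpa and Maf. For Csf1r the labeled-KO pair differed by 1.68 and for Adgre1 by 1.46, with KO 1 the lower in both, whereas the group means differed by 0.63 and 0.77. On this scale the groups did not overlap for Cebpb, Maf and Csf2ra either, all lower in the labeled-KO pair along with Spi1 and Cebpa, as were 22.6% of all genes tested.

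**Figure D2:**
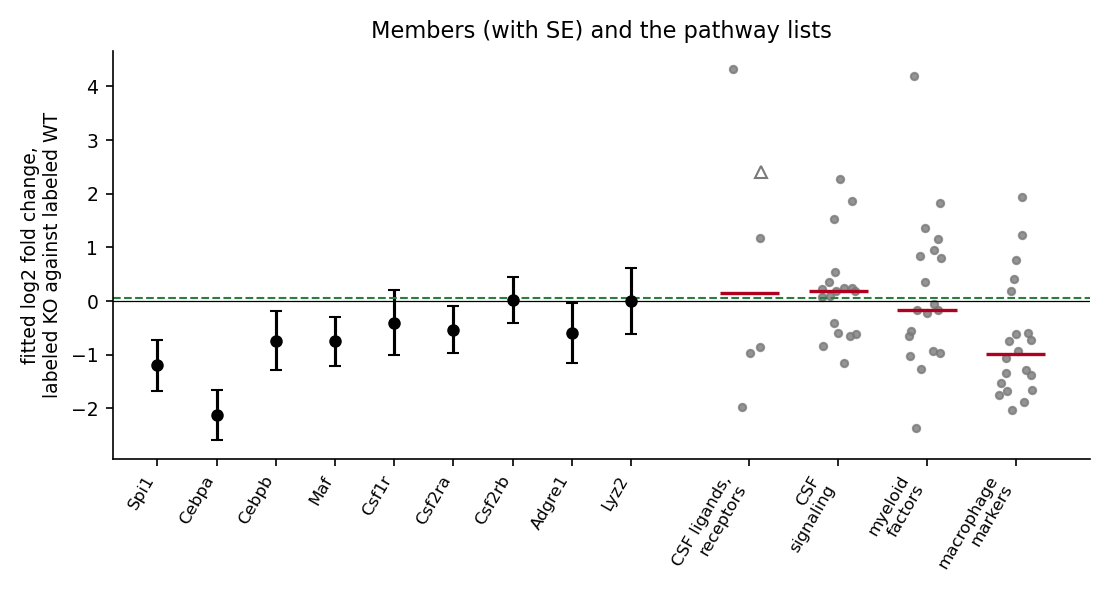
Fitted log2 fold change of the labeled-KO pair against the labeled-WT pair for the 9 genes (black points, bars are 1 SE from the edgeR fit of 2 against 2 libraries) and for the tested genes of the 4 pathway lists (gray points, red line at the median). The dashed line is the median of all genes tested at 0.05, and the open triangle is the lower bound of Csf2, which had no count in the labeled-WT pair. Cebpa at -2.13 is the lowest of the 9.

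The 9 genes were then set against the 20 other macrophage and monocyte markers, as counts per 1000 counts on those markers in the same library. This measure does not depend on how a library was scaled, but it moves with the marker list itself. Spi1 varied least, with 21.7 and 21.1 in the labeled-WT pair and 21.4 and 19.1 in the labeled-KO pair. Cebpa had 5.37 and 3.03 in the labeled-WT pair and 2.74 and 1.67 in the labeled-KO pair, lower in both, as were 1.03% of all genes tested on this measure. WT 2 and KO 1 differed little in it. Lyz2 had 234 and 381 in WT 1 and WT 2, against 1002 in KO 1 and 465 in KO 2.

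Csf2rb had 4.20 and 3.54 per 1000 marker counts in the labeled-WT pair against 9.43 and 7.76 in the labeled-KO pair. Csf2ra had 3.54 and 5.50 against 8.24 and 5.76, with WT 2 and KO 2 nearly equal. With Lyz2 these were the 3 members higher in both libraries labeled KO, as were 68.0% of all genes tested on this measure. Csf1r had 25.1 and 31.7 in WT 1 and WT 2 and 29.8 and 55.4 in KO 1 and KO 2. Adgre1 had 12.2 and 15.2 in WT 1 and WT 2 and 14.0 and 22.5 in KO 1 and KO 2. In both, KO 1 lay within the range of the labeled-WT pair and KO 2 stood above it. Cebpb at 25.4 to 41.2 and Maf at 4.17 to 12.2 overlapped between the groups.

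**Figure D3:**
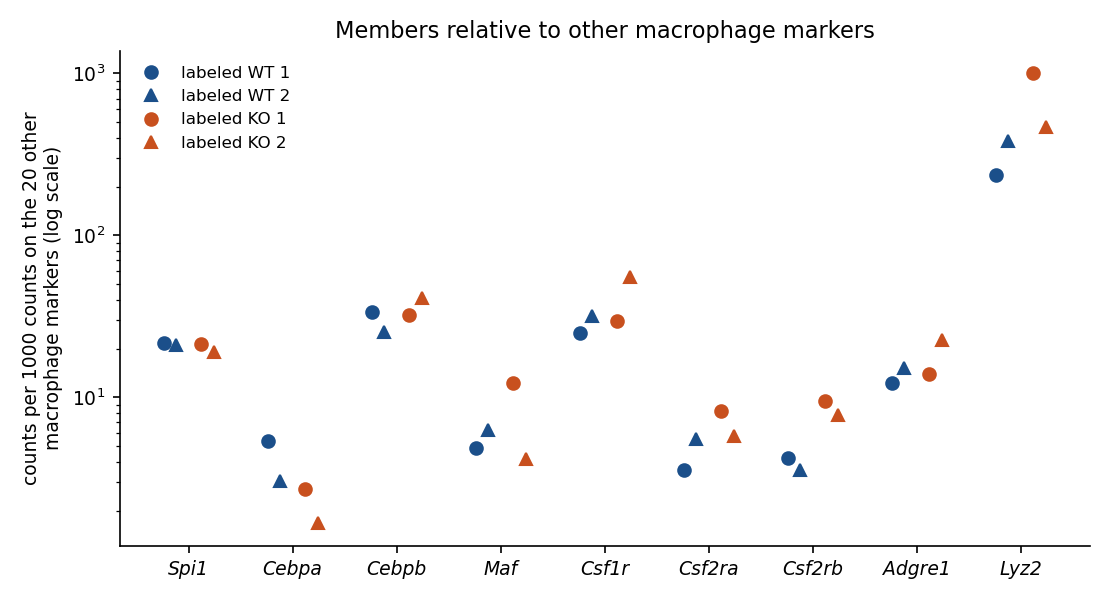
Counts of each of the 9 genes per 1000 counts on the 20 other macrophage and monocyte markers of the same library, on a log scale, with 1 point per library. Spi1 stays between 19.1 and 21.7 in all 4 libraries, Cebpa is lower in both libraries labeled KO, and Lyz2 reaches 1002 in KO 1.

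When the libraries were scaled to those 20 markers in the edgeR fit, the median log2 fold change of all genes was 1.25, and the values of members are to be read beside that shift. Spi1 then had a log2 fold change of -0.08 and Cebpa of -0.93. The signs of Cebpb (0.32), Maf (0.55), Csf1r (0.59), Csf2ra (0.63) and Adgre1 (0.41) turned, all still below the shifted median, and Csf2rb and Lyz2 stood at 1.15 and 1.25. No member passed the threshold in that fit.

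Ratios between members within a library were examined for 6 pairs, per kb of exons on the log2 scale. With 2 libraries a group, the smallest two-sided p of an exact permutation test is 0.333, so these are descriptions. The ratio of Csf1r to Adgre1 was 0.20, 0.23, 0.25 and 0.47 in WT 1, WT 2, KO 1 and KO 2. It ranged over 0.27 in all, the narrowest range among the 36 pairs that the 9 genes form, whose median range was 1.45. These genes thus kept nearly the same ratio while each varied more than 2-fold between KO 1 and KO 2. The widest range, 3.07, was that of Cebpa to Lyz2.

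The ratio of the C/EBP genes, Cebpa to Cebpb, was -3.45 and -3.88 in the labeled-WT pair and -4.36 and -5.43 in the labeled-KO pair, lower in both. The difference of the means was -1.23, and it was -0.70 without KO 2 and -1.77 without KO 1. The ratio of the GM-CSF receptor chains, Csf2rb to Csf2ra, was -1.09 and -1.98 against -1.15 and -0.91, and the groups overlapped. For Csf1r to Csf2rb it was 2.91 and 3.49 in the labeled-WT pair and 1.99 and 3.17 in the labeled-KO pair, with KO 1 the lowest. The ratio of Maf to Spi1 was highest in KO 1 at -2.42 and lay between -3.81 and -3.35 in the others. That of Csf1r to Lyz2 was lowest in KO 1 at -7.21 and lay between -5.72 and -5.20 in the others.

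**Figure D4:**
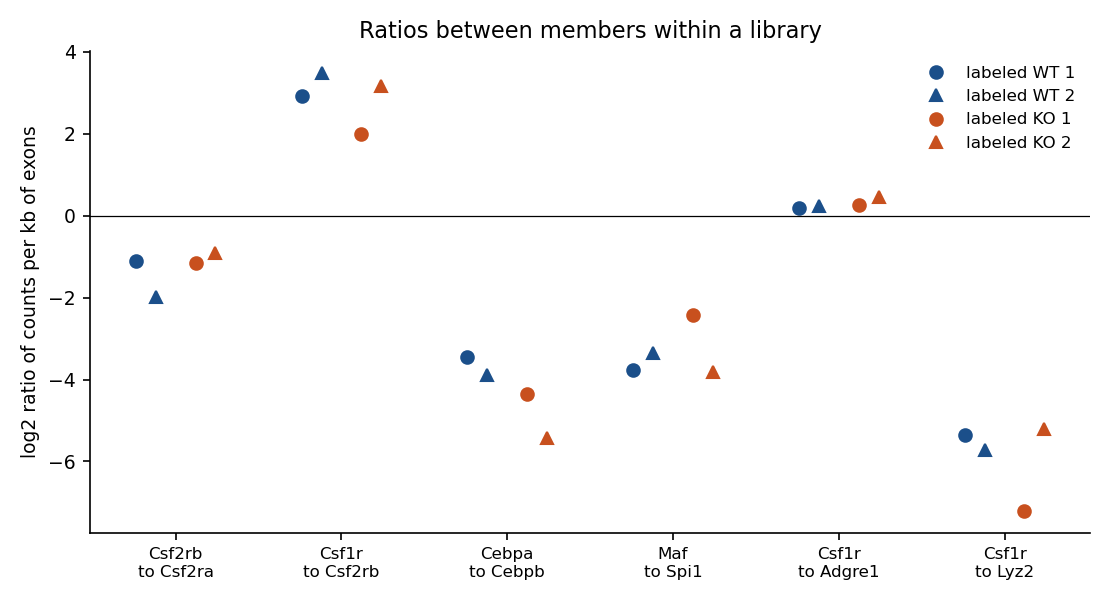
Log2 ratio of counts per kb of exons between members of the same library, for 6 pairs, with 1 point per library. The 4 points of Csf1r to Adgre1 lie between 0.20 and 0.47, both points labeled KO lie below those labeled WT for Cebpa to Cebpb, and KO 1 stands apart for Maf to Spi1 and for Csf1r to Lyz2.

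The CSF ligands were present at low levels beside their receptors. Csf1, the ligand of CSF1R, had 40 and 35 counts in the labeled-WT pair and 55 and 208 in KO 1 and KO 2. KO 2 held most of these counts, and the log2 fold change was 1.18 (SE 0.67; edgeR quasi-likelihood test, adjusted p = 0.463). Csf2, which encodes GM-CSF, a cytokine that activated T cells make, had 0 counts in both libraries labeled WT and 29 and 18 counts in the labeled-KO pair. Against a floor of 3 counts in each library labeled WT it was at least 5.26-fold higher, with an adjusted p of 0.129 in the edgeR quasi-likelihood test. Csf3 (G-CSF) had 5 and 2 counts in WT 1 and WT 2, with 8 and 18 in KO 1 and KO 2, and was not tested. Il34, the other ligand of CSF1R, had 6 counts, all in KO 1. Il3 and Il5 had no counts in any library, which allows up to 3 counts in each. The share of counts on T cell identity genes was higher in both libraries labeled KO, as given above, and its part in the Csf2 counts was not tested.

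Csf3r and Il3ra were lower in the labeled-KO pair, without passing the threshold. Csf3r, the G-CSF receptor of neutrophils and monocytes, had 501 and 459 counts in the labeled-WT pair and 242 and 507 in KO 1 and KO 2. Its CPM were 125 and 108 against 54.0 and 94.2, and the log2 fold change was -0.97 (SE 0.47; edgeR quasi-likelihood test, adjusted p = 0.399). Il3ra, the chain that binds IL-3, had 229 and 147 counts against 67 and 79, with a log2 fold change of -1.98 (SE 0.50; edgeR quasi-likelihood test, adjusted p = 0.140). In CPM it was 57.0 and 34.5 against 14.96 and 14.7, so that the labeled-KO pair were again nearly equal.

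**Figure D5:**
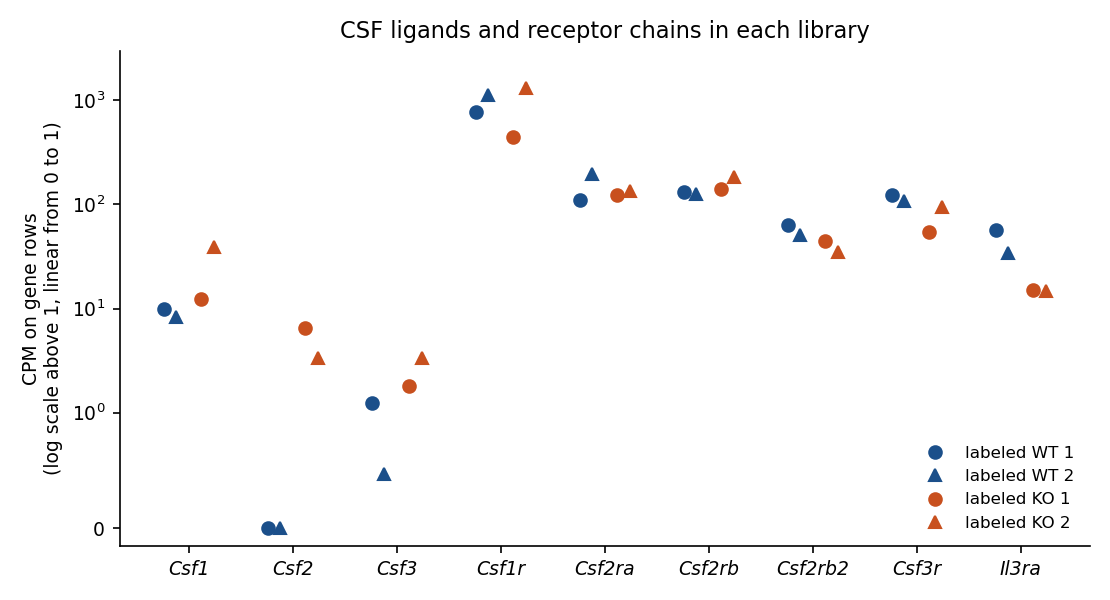
CPM of 3 CSF ligands and 6 receptor chains in each library, on a scale that is linear from 0 to 1 CPM and logarithmic above. The ligands lie at 38.6 CPM or less, Csf2 is at 0 in both libraries labeled WT, and Csf1r reaches 1304 CPM in KO 2.

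Of the 12 ligands and related receptor chains, 6 were tested, and none passed the threshold (edgeR quasi-likelihood test). At an unadjusted p under 0.05 there were 3, Csf2 and Kit higher and Il3ra lower, and DESeq2 called the same 3 genes, beside 13.7% and 3.51% of all genes tested. The fold change was above 0 for 3 and below 0 for 3, with a median of 0.16 on the log2 scale, which was also the median with Csf2 at its bound. Kit, the receptor for stem cell factor, had 0 and 5 counts in the labeled-WT pair and 88 and 60 in the labeled-KO pair.

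All 18 signaling genes downstream of the receptors were tested, and none passed (edgeR quasi-likelihood test). In this list 12 had a fold change above 0 and 6 below, with a median of 0.19, 2 had an unadjusted p under 0.05 (13.7% over all genes tested), and DESeq2 called 1, Cish (3.51% over all). Ptpn6, the phosphatase SHP-1, and Socs3, an inhibitor of cytokine signaling, were among the most abundant. Ptpn6 had 484 and 661 CPM in WT 1 and WT 2 and 325 and 607 CPM in KO 1 and KO 2. Socs3 had 247 and 349 CPM in WT 1 and WT 2 and 208 and 565 CPM in KO 1 and KO 2. In both, KO 1 was the lowest library and the groups overlapped. Cish, a feedback inhibitor induced by STAT5, had 9.96 and 21.8 CPM in the labeled-WT pair and 67.6 and 74.9 CPM in the labeled-KO pair (log2 fold change 1.86, SE 0.49; edgeR quasi-likelihood test, adjusted p = 0.156).

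Of 20 other myeloid transcription factors 19 were tested, and none passed (edgeR quasi-likelihood test). The fold change was above 0 for 8 and below 0 for 11, with a median of -0.16, 4 had an unadjusted p under 0.05 (13.7% over all genes tested), and DESeq2 called 1, Nr1h3 (3.51% over all). Irf8, an interferon regulatory factor that acts with PU.1, had 479 and 398 CPM in WT 1 and WT 2 and 245 and 503 CPM in KO 1 and KO 2. Irf5, its relative in inflammatory macrophages, had 510 and 438 CPM in WT 1 and WT 2 and 208 and 411 CPM in KO 1 and KO 2. KO 1 was the lowest library for both genes. Nr4a1, an orphan nuclear receptor of patrolling monocytes and of stimulated lymphocytes, had 121 and 314 CPM in the labeled-WT pair and 411 and 927 CPM in the labeled-KO pair (log2 fold change 1.35, SE 0.61; edgeR quasi-likelihood test, adjusted p = 0.371). Nr1h3, which encodes the sterol receptor LXRα, had 212 and 119 CPM against 16.1 and 64.5 CPM (log2 fold change -2.36, SE 0.70; edgeR quasi-likelihood test, adjusted p = 0.193).

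All 20 other macrophage and monocyte markers were tested, and none passed (edgeR quasi-likelihood test), while DESeq2 called 4, C1qa, Fcer1g, Ms4a7 and Trem2 (3.51% over all). The fold change was above 0 for 5 and below 0 for 15, with a median of -0.99, and 7 had an unadjusted p under 0.05, all lower in the labeled-KO pair, where 4.23% of all genes tested were. The CPM of 10 markers were lower in both libraries labeled KO, as for 12.6% of all genes tested, and those of 4 higher in both, as for 35.9%. C1qb, a chain of complement C1q, had 6265 and 8764 CPM in the labeled-WT pair and 2094 and 5021 CPM in KO 1 and KO 2. Apoe, a lipid carrier, had 3404, 3834, 1887 and 3529 CPM in WT 1, WT 2, KO 1 and KO 2. Ctss, a lysosomal protease, had 3258, 3615, 3562 and 2234 CPM, and here KO 2 was the lowest. Without KO 2 the number past the threshold was 9, where 9.72% of all genes tested passed, and without KO 1 it was 1, Lyz1, where 0.998% passed. Each of these fits rests on a single library labeled KO.

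Genes with a profile most like that of Spi1, Csf1r and Maf over the 4 libraries were sought among 6217 tested genes with a mean of at least 20 normalized CPM. Likeness was the distance between log2 normalized CPM after centering each gene on its mean, and 4 libraries give it little weight. For Spi1 the nearest were Igf1 at a distance of 0.07, Cotl1 at 0.13 and Tmem205 at 0.13. Igf1 had 39.6 and 42.0 CPM in the labeled-WT pair and 19.4 and 26.6 in the labeled-KO pair. For Csf1r they were Ncln at 0.09, Def8 at 0.14 and Slc52a2 at 0.14, all lowest in KO 1 and highest in KO 2 by CPM. For Maf they were the antigen presentation genes H2-Aa at 0.08 and H2-Eb1 at 0.11 and the predicted gene Gm17111 at 0.09, all lowest in KO 2 and highest in WT 2 by CPM.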

How the data were processed

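RNA of cells sorted as CD45.2+CD8+ from B16-F10 tumors was sequenced after polyA selection with the NEBNext Ultra II kit. The authors deposited raw whole-number counts per gene, with 1 table per library and no normalization. The submitters' processing notes name HISAT2 2.1.0, HTSeq 0.11.0 and mm10, while the annotation and the strand setting are not given in the sources used here. Summary lines for reads on no gene entered neither library sizes nor tests. Reads on genes made up 20.5% to 28.8% of all reads in a table.

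Libraries were grouped by title. Labeled-KO and labeled-WT libraries were compared with edgeR 4.0.16 under R 4.3.3. The function filterByExpr chose the genes tested (minimum count 10, minimum total 15), libraries were scaled by TMM, and group was the only term of a quasi-likelihood F test over all 4 libraries. Two-sided p-values received Benjamini-Hochberg adjustment across the 11837 tested genes, and 0.05 was the threshold. The SE is the size of a log2 fold change divided by the square root of F, and fold changes used a prior count of 0.125. CPM used the summed gene rows. Exact (Clopper-Pearson) 95% intervals of the shares of counts describe counting error alone, because reads lacked molecular identifiers. For the share on the 9 genes they did not overlap between any of the 4 libraries. They did overlap between WT 1 and WT 2 for fibroblasts and endothelium, and between WT 1 and KO 2 for B cells. The fit was tested on simulated data: of 200 genes changed by 2 or by 4 on the log2 scale, 53 and 191 were recovered, with 1 and 6 false calls.

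Positions, exon lengths and coding sequences came from GENCODE M21, in which 96.3% of symbols were found, and upstream sequences from RefSeq. Coordinates are 1-based.

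The 9 genes and the gene lists were chosen with earlier results of these data known. From each pathway list, genes past the threshold (up to 5 by size of fold change), the 3 with the highest mean normalized CPM, CSF ligands with at least 10 counts in all, the close copies Csf2rb2 and Lyz1, and Satb1 were named by rule, together with the 3 genes nearest in profile to Spi1, Csf1r and Maf. Kit, Il34, Cish, Nr1h3, Cd8a, Cd79b, Pax5, Cdh5, Tmem189, Hmgxb3 and the genes listed as called by DESeq2 or without a library were named after their values were seen. Some genes that the rule names are not reported here.

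The alternatives comprised DESeq2 1.42.0 and edgeR's likelihood ratio test, changed scaling factors or filters, a replicate block, thinned counts, a prior count of 2, scaling to macrophage markers and the omission of single libraries. The crossed block was chosen after seeing the data.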

Additional observations from a re-analysis of the deposited data

How the results depend on the processing

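With 2 libraries per group, leaving out KO 1 or KO 2 moved the values of Cebpb, Csf1r and Adgre1 among others, and a fit without a library takes its spread from the other group alone. The number of genes past the threshold over all genes, 68 as reported, was 136 with no scaling factors, 583 with no filter on low counts, 416 with DESeq2, 556 with the likelihood ratio test, 215 with a replicate block, 647 with a crossed replicate block, 107 when scaled to macrophage markers and 113 to 1249 when a library was left out. Of the 9 genes, 1 passed with no filter, DESeq2, the likelihood ratio test and the crossed block, and 0 to 5 when a library was left out. That gene was Cebpa, at -2.14, -2.14, -2.13 and -2.07 in that order, and the 5 without KO 2 were Spi1, Cebpa, Cebpb, Csf1r and Adgre1, where 4.08% of genes were called lower.

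When a library was left out, log2 fold changes ran from -1.58 to -0.93 for Spi1, -2.53 to -1.70 for Cebpa, -1.46 to -0.28 for Cebpb, -1.19 to -0.45 for Maf, -1.51 to 0.20 for Csf1r, -0.87 to -0.24 for Csf2ra, -0.29 to 0.24 for Csf2rb, -1.55 to -0.053 for Adgre1 and -0.36 to 0.34 for Lyz2. Signs turned with scaling to macrophage markers for Cebpb (0.32), Maf (0.55), Csf1r (0.59), Csf2ra (0.63) and Adgre1 (0.41), with no filter for Csf2rb (-0.00027) and Lyz2 (-0.025), and for Csf2rb with the block (-0.0018) and the crossed block (-0.0020).

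In the list of CSF ligands and receptor chains 3 passed with no filter, DESeq2, the likelihood ratio test and the crossed block, 1 with the replicate block and 0 to 3 when a library was left out. Its median was 1.22 with no filter, -0.85 with a minimum count of 50, 1.26 with macrophage scaling and -0.016 to 1.77 when a library was left out. Of the signaling genes 1 passed with no filter, DESeq2, the likelihood ratio test and the crossed block and 0 to 3 when a library was left out, and their median was 1.29 with macrophage scaling and -0.31 to 0.30 when a library was left out. Of the other myeloid factors 1 passed with no filter, DESeq2, the block and the crossed block, 2 with the likelihood ratio test and 0 to 4 when a library was left out. Their median was 0.20 with no scaling, -0.028 with a minimum count of 50, 1.12 with macrophage scaling and -0.34 to 0.015 when a library was left out. Of the other macrophage markers 1 passed with no filter, 4 with DESeq2, 2 with the likelihood ratio test or the crossed block and 0 to 9 when a library was left out. Their median was -0.64 with no scaling, 0.33 with macrophage scaling and -1.45 to -0.84 when a library was left out. The causes were not tested.

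The replicate numbers were not taken to pair libraries, since no label says so and same-numbered libraries deviated with a correlation of -0.18 over 11837 genes. In the paired fit with the replicate block, no member passed and 215 genes did, and the crossed block, chosen after seeing the data, gave 647. Differences of the log2 ratios, labeled KO minus labeled WT, changed sign without KO 1 for Maf to Spi1 (0.44 to -0.25) and Csf1r to Lyz2 (-0.66 to 0.34). When a library was left out the others ran from -1.77 to -0.70 for Cebpa to Cebpb, 0.066 to 0.95 for Csf2rb to Csf2ra, -1.21 to -0.036 for Csf1r to Csf2rb and 0.039 to 0.25 for Csf1r to Adgre1. The difference in the share of counts on the 9 genes, 0.18 percentage points, was -0.16 without WT 1 and -0.086 without Lyz2.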
